A study of Homo sapiens with 2 samples.

Results

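The genes described here are 9 enzymes of the pentose phosphate pathway and of NADPH production: PGLS, PGD, RPIA, RPE, TKT, TALDO1, ME1, IDH1 and IDH2. They were chosen by name, with earlier results of these libraries known, and all 9 matched an Ensembl ID among the 63677 counted genes through a GRCh37 annotation. Other enzymes of the pathway are not analysed here, beyond the lists given further on. RNA sequencing was done on MDA-MB-231, an established human line of triple-negative breast cancer. 1 library was labelled as control and 1 as treated with Carpesium cernuum extract (CCE), an extract of a plant of the daisy family. A protocol of 1 µg/mL CCE for 24 h stood on both samples, so the treatment label alone set the groups, and the vehicle of the control is unknown here. With 1 library per group, no test between conditions was possible, and every difference below describes these 2 libraries.

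The pentose phosphate pathway branches off glycolysis at glucose 6-phosphate. Its oxidative branch reduces NADP+ to NADPH and ends in ribulose 5-phosphate. Its non-oxidative branch interconverts sugar phosphates, supplies ribose for nucleotides and returns carbon to glycolysis. Malic enzyme and the NADP-dependent isocitrate dehydrogenases form NADPH by other routes, and cells spend NADPH on glutathione and thioredoxin reduction and on lipid synthesis.

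Counts on genes totalled 5633569 in the control library and 34884501 with CCE, a 6.19-fold difference in depth. Levels are given as CPM, counts scaled to library sizes that were adjusted by TMM, a normalization that trims extreme genes. 1 count was worth 0.180 CPM at the depth of the control and 0.0283 CPM at that of CCE. Each ratio has an exact 95% interval (Clopper-Pearson) for counting error, and the spread between cultures is not in it. A gene was called when it was at least 1.5-fold higher or lower and its interval excluded a ratio of 1. The cell line markers VIM, CD44, AXL, CAV1, KRT8 and KRT18 lay between 175 and 3739 CPM in the control and between 129 and 1801 CPM with CCE. All 6 were lower with CCE, VIM at 3739 and 1801 CPM, AXL at 622 and 323 and CAV1 at 339 and 158, and what part this had in the members' ratios was not tested. Of 5 genes low or absent in this type of cancer or line, ESR1, the estrogen receptor gene, had 0 counts in both libraries, PGR 0 and 6, and CDH1 0 and 1. ERBB2 (55.4 and 51.8 CPM) and EPCAM (10.1 and 7.50 CPM) were detected in both. 5 matched markers of blood, vessel, myofibroblast and liver cells summed to 1.62 and 1.08 CPM, and CDH5 and ALB, of vessel and liver cells, had 0 counts in both.

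A rule chosen after seeing the data took genes whose interval excluded 1 at any fold. By it, 3 of the 9 genes, ME1, IDH1 and PGD, were higher by counts in the CCE library. IDH2 and PGLS, 2 of the 9, were lower. The same held for 30.1% of all 14424 measured genes (mean of at least 1 CPM) on the higher side and 25.1% on the lower side. The other 4 made up the whole non-oxidative group and lay within 1.17-fold of the control. PGD stayed under 1.5-fold, and by the authors' FPKM values, described further on, ME1 was lower with CCE. Promoter sequences are shown for ME1, IDH1, PGD and RPE. These 4 of the 9 members hold the core letters of the antioxidant response element in their windows. That element is bound by NRF2, a transcription factor of the oxidative stress response whose known targets include genes of NADPH production. The letters searched were TGACNNNGC on both strands, in the 250 bases before each RefSeq start on GRCh38.p14, a different build from that of the counts. Each sequence runs 5′ to 3′ along its gene, with the matching letters in capitals.
ME1 (chr6:83431052-83431301, minus strand): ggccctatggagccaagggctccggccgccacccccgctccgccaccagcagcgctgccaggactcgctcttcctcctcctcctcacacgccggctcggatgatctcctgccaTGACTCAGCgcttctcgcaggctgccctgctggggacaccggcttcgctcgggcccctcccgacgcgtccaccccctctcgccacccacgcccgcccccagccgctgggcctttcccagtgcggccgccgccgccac
IDH1 (chr2:208255072-208255321, minus strand): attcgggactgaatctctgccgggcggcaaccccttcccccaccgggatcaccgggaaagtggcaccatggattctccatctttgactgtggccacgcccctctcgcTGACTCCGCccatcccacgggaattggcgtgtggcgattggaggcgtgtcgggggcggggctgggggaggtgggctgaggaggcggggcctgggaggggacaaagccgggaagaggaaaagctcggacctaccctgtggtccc
PGD (chr1:10398814-10399063, plus strand): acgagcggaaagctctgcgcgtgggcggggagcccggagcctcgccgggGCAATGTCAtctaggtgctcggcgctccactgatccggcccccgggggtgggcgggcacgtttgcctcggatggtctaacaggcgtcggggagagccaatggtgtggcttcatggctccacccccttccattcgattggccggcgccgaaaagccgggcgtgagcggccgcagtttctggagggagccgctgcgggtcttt
RPE (chr2:210002388-210002637, plus strand): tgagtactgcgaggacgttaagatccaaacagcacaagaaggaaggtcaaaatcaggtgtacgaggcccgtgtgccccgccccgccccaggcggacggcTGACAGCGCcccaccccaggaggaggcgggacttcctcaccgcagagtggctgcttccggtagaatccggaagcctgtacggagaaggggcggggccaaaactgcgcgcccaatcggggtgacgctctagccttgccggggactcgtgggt

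The ME1 match, TGACTCAGC, began 137 bases before the start, and the IDH1 match, TGACTCCGC, 143 bases before it. In PGD the match lay on the opposite strand, as GCAATGTCA, and began 201 bases before the start. RPE, whose counts did not separate the libraries, held TGACAGCGC from 151 bases before its start. All 9 genes had a RefSeq window, 10 windows in all since IDH1 has 2, and 4 genes had a match. The other IDH1 window, at a start 613 bases downstream, had none. The single IDH2 window belongs to a start 1847 bases inside the gene, so it does not cover the first start. Among all 35116 RefSeq windows of this length, 10.9% held the letters, and among the 10168 measured genes with a window, 15.8% did. A match of letters describes the sequence and is not evidence of binding. Whether NRF2 had a part in any of the ratios was not tested.

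Of the oxidative branch, PGLS was lower and PGD higher by counts. PGLS encodes 6-phosphogluconolactonase, which opens the lactone ring ahead of the NADPH-forming step of PGD. It lies on chromosome 19 from 17622445 to 17632097 (GRCh37). It had 573 counts in the control library (103 CPM) and 2420 in the CCE library (68.5 CPM). Its log2 ratio was -0.59 (95% counting interval -0.72 to -0.46), a level 1.51 times lower. 13.1% of the 14424 measured genes had a lower ratio. By the authors' FPKM values, described further on, PGLS was higher with CCE. In bulk RNA, fewer cells with a transcript and less of it per cell cannot be told apart.

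PGD encodes 6-phosphogluconate dehydrogenase, which makes NADPH and ribulose 5-phosphate. The gene spans 10458649 to 10480568 on chromosome 1. It had 651 counts (117 CPM) in the control and 6071 (172 CPM) with CCE, a 1.47-fold higher level (1.35 to 1.59), just under the 1.5-fold threshold. Per kilobase of canonical transcript, the level of PGD was 0.505 times that of PGLS in the control and 1.11 times with CCE. That is a 2.21-fold difference (1.95 to 2.50) by counts that needs no library scaling. By FPKM, PGD and PGLS lay close together in both libraries, at 44.4 and 46.0 in the control and 61.9 and 59.2 with CCE. The trend with GC content, described further on, does not cancel in the pair (50.7% in PGD and 65.9% in PGLS). Summed over both genes the branch was 1.09-fold higher (1.03 to 1.16), a sum in which the opposite differences nearly cancelled.

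The 4 genes of the non-oxidative branch had count ratios near 1, each with an interval that included it. TALDO1, on chromosome 11 from 747415 to 765012, encodes transaldolase, which moves 3-carbon units between sugar phosphates. It had 2410 and 15384 counts, or 433 CPM in the control and 435 CPM with CCE, a 1.004-fold ratio (0.962 to 1.049). TKT, on chromosome 3 from 53258728 to 53290068, encodes transketolase, the thiamine-dependent enzyme that moves 2-carbon units. It had 2113 and 13995 counts, 380 and 396 CPM, and a ratio of 1.04 (0.995 to 1.091). For these abundant genes the counting intervals were narrow, but the authors' FPKM values, given further on, were lower with CCE. The ratio of TALDO1 fell on the other side of 1 under upper-quartile scaling (log2 -0.04).

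RPIA and RPE, the ribose 5-phosphate isomerase and ribulose 5-phosphate epimerase genes, use the product of PGD and were measured less precisely. RPIA, on chromosome 2 from 88991191 to 89050446, had 157 counts (28.2 CPM) in the control and 1171 (33.1 CPM) with CCE, a ratio of 1.17 (0.993 to 1.395). RPE, on the same chromosome from 210867289 to 210886984, had 194 counts (34.9 CPM) and 1302 (36.8 CPM), a ratio of 1.06 (0.907 to 1.234). Neither interval excluded 1, which does not show that the levels were equal. The summed counts of the 4 genes had a ratio of 1.03 (0.998 to 1.060). Relative to TKT, PGD was 1.41-fold higher in the CCE library (1.28 to 1.55), while the ratio of TKT to TALDO1 differed 1.04-fold between libraries (0.974 to 1.105). GC content differs within these pairs too (50.7% in PGD, 58.0% in TKT and 53.6% in TALDO1), so its trend does not cancel.

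**Figure D1:**
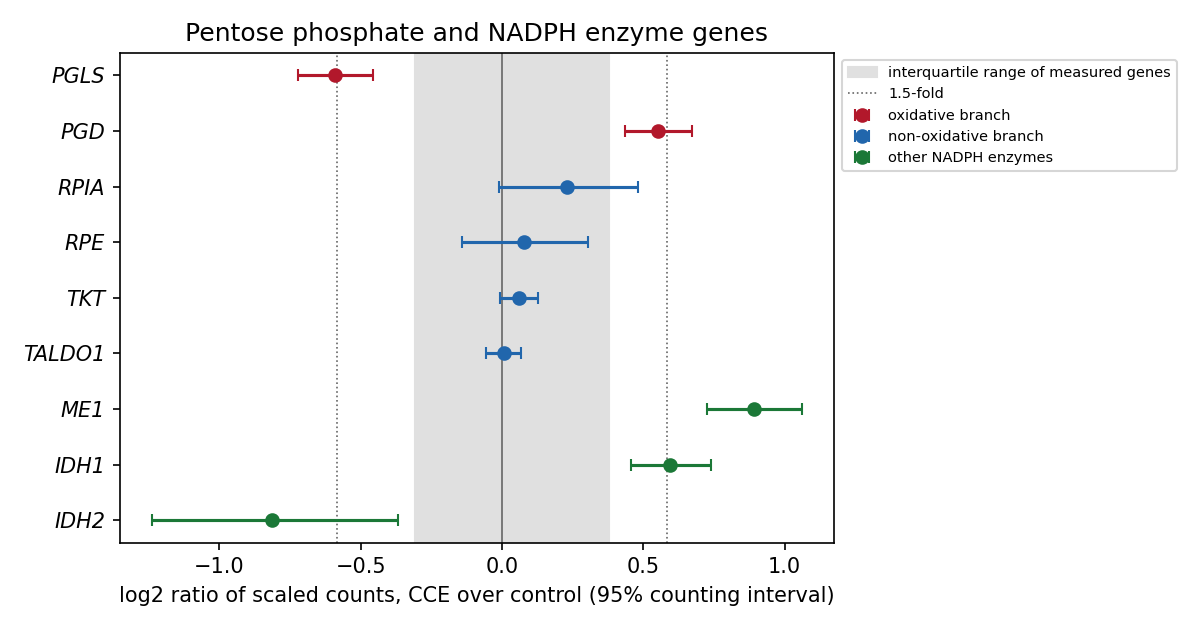
Log2 ratio (CCE over control) from scaled counts for the 9 genes grouped by role; points are ratios, bars 95% counting intervals, the grey band the interquartile range of measured genes (-0.31 to 0.38) and dotted lines 1.5-fold. ME1, IDH1 and PGD lie right of the band, PGLS and IDH2 left of it, and the points of the 4 non-oxidative genes inside it.

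Among the NADPH enzymes outside the pathway, ME1 and IDH1 were higher by counts and IDH2 lower. ME1 encodes cytosolic malic enzyme, which turns malate into pyruvate and NADPH. It lies on chromosome 6 from 83920121 to 84140770. It had 317 counts in the control (57.0 CPM) and 3736 with CCE (106 CPM), a 1.85-fold higher level (1.65 to 2.09). Of the measured genes, 93.5% had a lower ratio, and ME1 had the largest ratio of the 9. By FPKM as deposited ME1 was lower with CCE, and with both libraries set to the same FPKM sum its log2 ratio was 0.04.

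IDH1, on chromosome 2 from 209100953 to 209130798, encodes the isocitrate dehydrogenase of cytosol and peroxisomes. It had 452 counts (81.3 CPM) and 4339 (123 CPM), a 1.51-fold higher level (1.37 to 1.67). IDH2, on chromosome 15 from 90626277 to 90645709, encodes the mitochondrial isoenzyme. It had 58 counts (10.4 CPM) in the control and 210 (5.94 CPM) with CCE, a log2 ratio of -0.81 (-1.24 to -0.37), 1.76 times lower. Per kilobase of canonical transcript, the level of IDH1 was 8.94 times that of IDH2 in the control and 23.7 times with CCE. That is a 2.65-fold difference (1.92 to 3.62) that needs no scaling. The trend with GC content, described further on, does not cancel in this pair either (41.8% in IDH1 and 55.5% in IDH2). The wide interval of IDH2 follows from its 58 control counts.

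By the 1.5-fold rule, 2 of 9 genes were called higher (ME1 and IDH1) and 2 lower (PGLS and IDH2), against 12.1% and 11.3% of all measured genes, or 23.4% in either direction. None passed 2-fold, which 9.28% of measured genes did. IDH1, PGLS and PGD lay close to the 1.5-fold line on either side, so these counts say little beyond the single values. IDH1 lost its call under upper-quartile scaling. Under total-count scaling PGLS lost its call and PGD gained one. The median log2 ratio of the 9 was 0.08, beside 0.05 over all measured genes, and by FPKM it was -0.39, beside -0.07.

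The levels per length spanned a wide range. In CPM per kilobase of the Ensembl canonical transcript, the control library ran from TALDO1 at 361 (interval 347 to 376) through TKT at 127 (121 to 132), PGLS at 102 (94.0 to 111), PGD at 51.6 (47.7 to 55.7) and IDH1 at 35.1 (31.9 to 38.5). ME1 followed at 17.1 (15.3 to 19.1), RPIA at 15.6 (13.2 to 18.2), RPE at 11.0 (9.48 to 12.63) and IDH2 at 3.92 (2.98 to 5.07). The intervals of ME1 and RPIA overlapped, and those of the other neighbours did not. In the CCE library PGD (75.7) stood above PGLS (67.9), their order in the control reversed, and ME1 (31.7) stood clear of RPIA (18.3). The other positions in the order were the same.

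Scaled by the merged exons of all annotated transcripts, TALDO1 was again first (149 in the control) and IDH2 last (3.74). TKT then stood at 40.0 in the control, since its merged exons measure 9502 bases against 2996 for its canonical transcript. In that control order PGLS (36.3) and PGD (35.1) overlapped in their intervals. In the CCE library PGD (51.5) passed TKT (41.7), and PGLS (24.1) stood below ME1 (31.7) and IDH1 (26.1). The order of the middle genes thus depends on which transcript length applies. The count ratios between libraries use no length, which takes the mix of transcripts of a gene as alike in both. That was not tested.

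**Figure D2:**
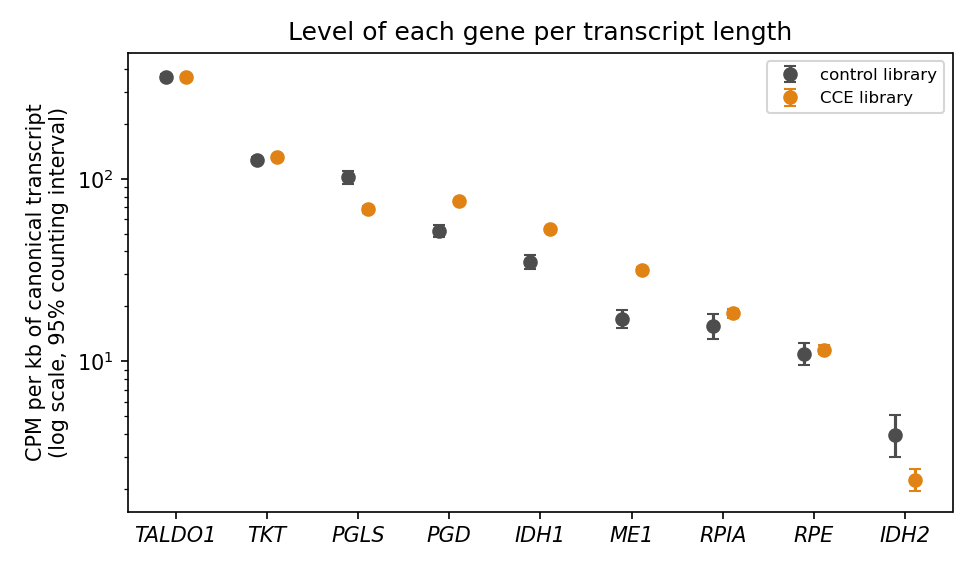
Level of each gene in CPM per kilobase of canonical transcript (log axis) in the control library (grey) and the CCE library (orange), with 95% Poisson counting intervals. TALDO1 is highest near 361 in both, IDH2 lowest, and PGLS and PGD exchange places between the libraries.

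Several members share bases with neighbours or copies, and no source used here says whether counting used strand. PGLS shares 254 exon bases with PGLS-DT, a noncoding gene on the opposite strand with 68 and 340 counts (log2 ratio -0.35, -0.73 to 0.05). RPE shares 840 exon bases with KANSL1L on the opposite strand (57 and 402 counts), and IDH1 shares 94 with IDH1-AS1 (7 and 12 counts). Without strand, reads of such pairs cannot be told apart. Of all words of 50 bases in the canonical transcript, 37.9% in RPE also occurred in transcripts of other genes, 25.3% in KANSL1L and 12.7% in RPEL1, a copy with 2 and 16 counts. The share was 20.0% in PGLS, 5.81% in PGD (in the pseudogene PGDP1, with 0 and 8 counts), 3.53% in IDH2, 0.573% in IDH1 and 0 in RPIA, TKT, TALDO1 and ME1. ME1, with the largest ratio, thus shared no such word with another annotated gene.

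Ratios over all measured genes went with base composition, and the members followed the same order in part. Over the 13963 measured genes with a canonical transcript sequence, the median log2 ratio was 0.18 in the decile with the lowest GC content and -0.19 in the decile with the highest. Spearman's rho between GC content and ratio was -0.197 across these genes, which share both libraries and are not independent replicates. ME1 (39.3% GC) and IDH1 (41.8%) are AT-rich, PGD is intermediate (50.7%), and IDH2 (55.5%) and PGLS (65.9%) are GC-rich. After subtraction of the median of its decile, ME1 was at 0.71, PGD at 0.47, IDH1 at 0.44, PGLS at -0.40 and IDH2 at -0.78. The 5 directions were thus the same, and IDH1 and PGLS were then under 1.5-fold. RPE, the member lowest in GC content (36.2%), was at -0.10 and RPIA, TKT and TALDO1 at 0.14, 0.12 and 0.005. What part base composition had in the ratios was not tested.

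**Figure D3:**
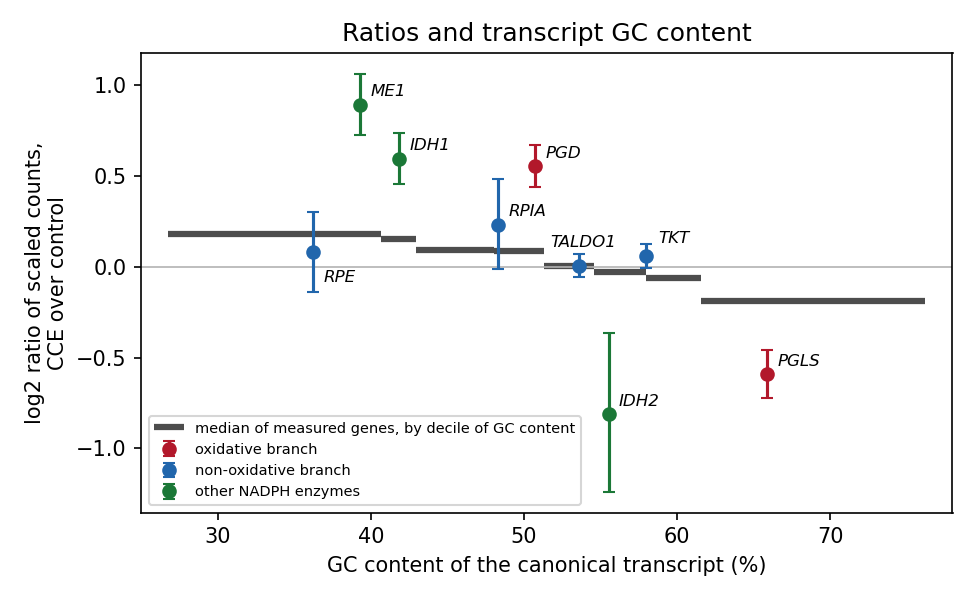
Log2 ratio (CCE over control) from scaled counts against GC content of the canonical transcript for the 9 genes (points with 95% counting intervals) and the median of measured genes in each decile of GC content (grey bars). The medians run from 0.18 to -0.19, while ME1, IDH1 and PGD lie above and PGLS and IDH2 below the bar of their decile.

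The authors' FPKM values, which are scaled to transcript length and depth, were summed over rows of a gene ID. They gave another direction for 5 of the 9 genes, while 62.9% of measured genes with FPKM had the same sign by both measures. Of the 5, RPE, TKT and TALDO1 had count intervals that included 1. The sum of all FPKM was 1.39 times higher in the control, so the values were also compared after scaling the CCE library to the sum of the control, an alternative chosen after seeing the data. PGD (44.4 in the control and 61.9 with CCE), IDH1 (31.3 and 38.6), RPIA (10.9 and 13.2) and IDH2 (3.72 and 1.79) differed in the same direction as by counts. PGLS was higher in the CCE library by FPKM, 46.0 against 59.2, and ME1 lower, 13.1 against 9.76. RPE had 16.6 and 11.6. On equal sums the CCE values were 82.3 for PGLS, still higher than the control, 13.6 for ME1 and 16.2 for RPE, so that ME1 and RPE lay within 1.03-fold of the control. That scaling also moved the median of all genes, from -0.07 to 0.28 on the log2(FPKM + 1) scale.

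Among the 9 genes, the largest gap was in the non-oxidative branch. TALDO1 had 273 FPKM in the control and 33.2 with CCE, 8.25 times lower, at a count ratio of 1.004. TKT had 69.6 and 20.9, 3.32 times lower, at a count ratio of 1.04. On equal sums they were 5.93 and 2.39 times lower. Of the 9 rows of TALDO1, the first held 242 FPKM in the control and 23.4 with CCE, and the first of the 14 rows of TKT held 58.7 and 11.4, each the highest row in both libraries. The rows carry no transcript name, so that a row at the same place stands for the same transcript in both libraries is assumed. Over 12841 measured genes not at 0 FPKM in both libraries, the median log2(FPKM + 1) difference was -0.07, and 62.9% had the same sign by both measures. The gap for TALDO1 and TKT therefore exceeded the median shift, and no depth is known for the FPKM values. Such a gap was not particular to these genes. The glycolysis gene ALDOA had 419 FPKM in the control and 20.4 with CCE, at a count ratio of 1.02.

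**Figure D4:**
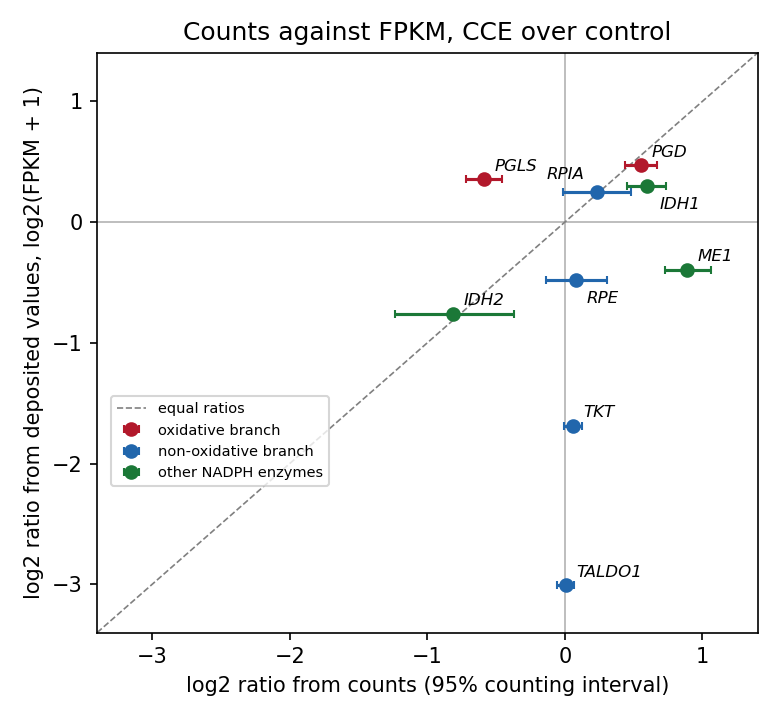
Log2 ratio, CCE over control, from counts (horizontal, 95% counting intervals) against the difference in log2(FPKM + 1) from the deposited values (vertical) for the 9 genes; the dashed line marks equal ratios. PGD, RPIA, IDH1 and IDH2 have the same sign on both axes, whereas TALDO1 and TKT lie at -3.01 and -1.69 on the FPKM axis.

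Of other pentose phosphate and ribose genes, 10 of 14 were measured. 1 was called higher and 2 lower, beside 12.1% and 11.3% of all measured genes, with a median log2 ratio of -0.21. TIGAR, which encodes a phosphatase known to divert glycolytic sugar into the pathway, had 10.6 CPM in the control and 17.2 CPM with CCE, a log2 ratio of 0.70 (0.31 to 1.11). H6PD, which runs the first oxidative steps inside the endoplasmic reticulum, had 13.7 and 8.35 CPM, a log2 ratio of -0.71 (-1.08 to -0.33). The gluconokinase gene IDNK had -0.69 (-1.27 to -0.07) by counts, but its FPKM was higher with CCE, 0 in the control and 1.69. PRPS2, which turns ribose 5-phosphate into the nucleotide precursor PRPP, had -0.42 (-0.61 to -0.22), and PGM1, a phosphoglucomutase, -0.31 (-0.46 to -0.16). The transketolase-like genes TKTL1 and TKTL2, singled out after their values were seen, had 0 counts in both libraries, which allows up to 0.540 CPM in the control and 0.0849 CPM with CCE. TKTL2 was listed at 0 FPKM in the control and 0.195 FPKM with CCE.

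Other NADPH sources and NAD kinases went both ways, with 1 of 10 measured genes called higher, 1 lower and a median of 0.02. Over all measured genes, 12.1% were called higher and 11.3% lower. MTHFD2L, a mitochondrial folate dehydrogenase, had a log2 ratio of 0.81 (0.56 to 1.07) and MTHFD1, its cytosolic trifunctional relative, -0.64 (-0.74 to -0.54). NNT, the mitochondrial transhydrogenase that reduces NADP+ with NADH, had -0.56 (-0.69 to -0.42). ME3, a mitochondrial NADP-dependent malic enzyme, had -0.43 (-0.69 to -0.17), beside 0.89 for ME1. By FPKM both directions were reversed, with ME3 at 3.70 in the control and 6.09 with CCE and ME1 at 13.1 and 9.76. GLUD1, glutamate dehydrogenase, had -0.20 (-0.29 to -0.10).

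Lists of enzymes that share intermediates with the members had medians near that of all measured genes by counts. By FPKM as deposited the medians were lower, -0.37 for glycolysis and -0.63 for citrate and malate genes, beside -0.07 over all genes. At 1.5-fold by FPKM, 4 of 10 glycolysis genes were lower and 3 higher. Of 16 citrate and malate genes, 9 were lower and 2 higher. Over all 14424 measured genes, 3471 were lower and 3065 higher by that rule. By counts, 12.1% of all measured genes were called higher and 11.3% lower. Of 10 glycolysis genes, 1 was called higher, the low-count aldolase gene ALDOC at 0.67 (0.05 to 1.35), and 0 lower, with a median of 0.01. HK1 (0.34, 0.25 to 0.43) and PFKM (0.34, 0.20 to 0.49) were above 0, PFKP (-0.41, -0.50 to -0.32) and GAPDH (-0.29, -0.31 to -0.27) below, and ALDOA was at 0.02 (-0.02 to 0.06). Of 16 citrate and malate enzymes and carriers, 1 was called higher and 0 lower, with a median of -0.04. The called gene was IDH3A, of the NAD-dependent mitochondrial isocitrate dehydrogenase, at 0.67 (0.46 to 0.88), while its partner subunit gene IDH3G was at -0.49 (-0.73 to -0.24). By FPKM, IDH3A was instead lower with CCE, 13.1 in the control and 7.04, and IDH3G was lower too, 17.6 and 7.51. PC, pyruvate carboxylase, had -0.45 (-0.63 to -0.26) and MDH1, which makes malate in the cytosol, -0.37 (-0.47 to -0.27). MDH2 (-0.08, -0.16 to 0.01) and ACLY, ATP citrate lyase (0.06, -0.01 to 0.13), had intervals that included 0.

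Genes whose enzymes spend NADPH had the highest median of the 5 lists, 0.46, with 6 of 16 called higher and 0 lower, beside the 12.1% and 11.3% over all measured genes. GSR, glutathione reductase, had a log2 ratio of 1.24 (1.08 to 1.41) and TXNRD1, cytosolic thioredoxin reductase, 1.08 (1.04 to 1.11). The aldose reductase gene AKR1B1 had 0.92 (0.86 to 0.98) and the quinone reductase gene NQO1 0.71 (0.65 to 0.77). The interval of ME1, the member with the largest ratio (0.89, 0.72 to 1.06), lay below that of GSR and overlapped those of TXNRD1 and AKR1B1. These lists were written with earlier results of these libraries known, so their counts are a description.

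**Figure D5:**
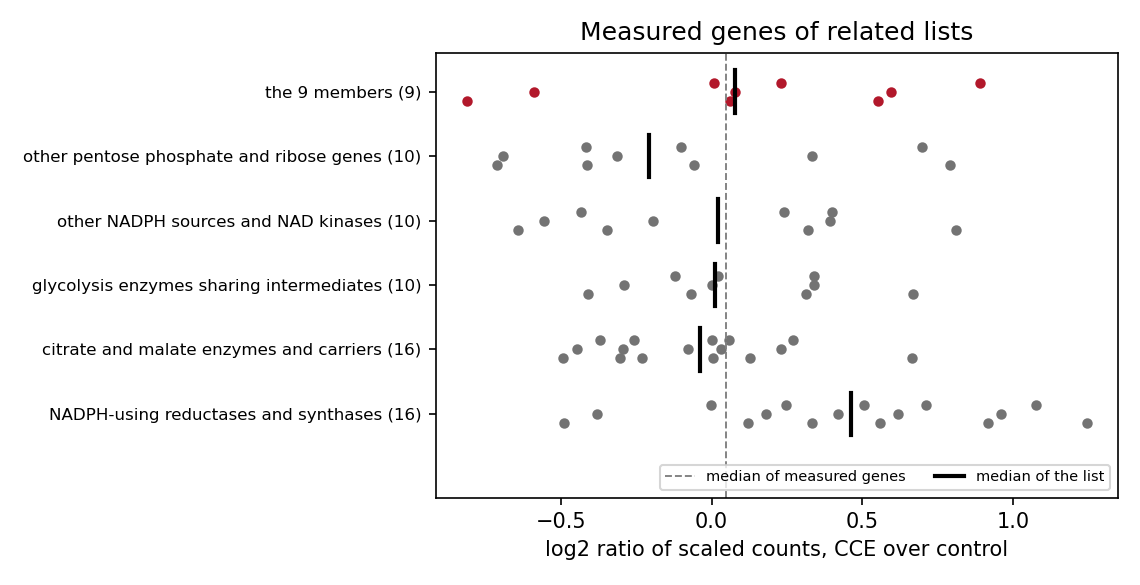
Log2 ratio (CCE over control) from scaled counts for the measured genes of the 9 members (red) and of 5 related lists (grey), with the number of measured genes in brackets; black bars are list medians and the dashed line is the median of measured genes (0.05). The members spread from -0.81 to 0.89 around 0.08, and the NADPH-using list has its median at 0.46.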

How the data were processed

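Per the submitters' processing notes, HISAT2 was used with hg19 or GRCh37. How reads were counted, whether strand was used, and how FPKM were made are not stated in these sources. The authors deposited raw counts per Ensembl gene and FPKM values for each library. Rows that name no gene (62.9% of control and 66.8% of CCE records) were left out. The 215170 deposited FPKM rows were summed per gene ID.

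Symbols, coordinates, exon lengths and GC content came from GENCODE release 44 lifted to GRCh37, which matched 55665 of 63677 IDs. TMM factors (edgeR 4.0.16, R 4.3.3) were 0.987 for the control and 1.01 for the CCE library. Intervals were computed in Python 3.11.15 with scipy 1.17.1. No pseudocount was added to counts, but a count of 0 was set to a floor of 3 when a ratio was taken. Every member had counts in both libraries, so their ratios were not affected. The intervals were also computed on Poisson counts simulated with the means and depths of these libraries. Such counts meet the assumption of the interval, so this checks the computation alone. Since PCR copies are not independent, intervals and the floor of 3 counts reflect counting error alone.

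Named genes were the 9 members, up to 4 genes of each related list with the largest absolute ratio whose interval excluded 1, the 2 most abundant per merged exon length, and overlapping genes and copies of a member. Members and lists were chosen with earlier results of these data known. Promoters came from RefSeq on GRCh38.p14. Alternatives included other scalings (DESeq2 1.42.0 among them), FPKM, other filters and thresholds, and, chosen after seeing the data, centring by GC content, a call at any fold or with no interval rule, FPKM set to equal sums and the length of the canonical transcript. Some genes of the pathway and of the related lists are not reported here.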

Additional observations from a re-analysis of the deposited data

How the results depend on the processing

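With 1 library per group, no sample could be left out, and depth of the control library limited the precision. No paired analysis was possible because each group has 1 library. The 9 ratios from counts kept their direction under total-count, upper-quartile and DESeq2 scaling, with mitochondrial genes left out of the library size, and with counts of copies added, each within its interval, except that TALDO1 went from 0.006 to -0.04 under upper-quartile scaling. The number of members called higher was 1 in place of 2 under upper-quartile scaling and after GC centring. It was 3 under total-count scaling. The number called lower was 1 in place of 2 under total-count scaling and after GC centring. GC centring moved ME1 to 0.71, IDH1 to 0.44 and PGLS to -0.40. By FPKM, with pseudocounts of 1 and 0.1, ME1 was at -0.39 and -0.43 and PGLS at 0.36 and 0.36, both reversed, and 0 members were called higher and 3 lower (TALDO1, TKT and IDH2). The median of the 9 was then -0.39 and -0.43. With FPKM set to equal sums (pseudocount 1), PGLS stayed reversed at 0.82 and ME1 was at 0.04. At 1.5-fold, 4 members were then higher and 2 lower (TALDO1 and TKT). That scaling also moved the median of all genes from -0.07 to 0.28. The share of all genes past 1.5-fold on equal sums is not given here, so these counts have no background. On these sums 3 of the other pentose phosphate genes were higher and 0 lower, 2 of the other NADPH sources higher and 2 lower, 3 glycolysis genes higher and 3 lower, 2 citrate and malate genes higher and 4 lower, and 10 NADPH-using genes higher and 2 lower.

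Over all measured genes, 1744 were higher and 1628 lower by counts. With an interval excluding 1 at any fold, the counts gave 4335 and 3616, and with 1.5-fold and no interval rule 2107 and 1898, with 2 of the other pentose phosphate genes higher. FPKM have no counting interval, so calls from them use 1.5-fold alone, and their numbers were 3065 and 3471 (pseudocount 1) and 3877 and 4006 (0.1). With either pseudocount, 2 of the other pentose phosphate genes were higher, 2 of the other NADPH sources higher and 2 lower, 3 glycolysis genes higher and 4 lower, 2 citrate and malate genes higher and 9 lower, and 2 NADPH-using genes lower. The FPKM medians were -0.37 and -0.37 for glycolysis and -0.63 and -0.73 for citrate and malate genes. 1 of the other pentose phosphate genes was lower by FPKM with a pseudocount of 1, and 1 with a filter of 5 CPM. 2 were higher under total-count scaling, and 2 other NADPH sources were lower under upper-quartile scaling. At 2-fold, 2 NADPH-using genes were higher, and 0 genes of the other lists were called in either direction, beside 9.28% of all measured genes. The cause was not tested.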
